A study of Mus musculus with 8 samples.

Results

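Maternal mRNA storage and masking factors are the proteins that hold the messages of a growing oocyte silent and stable until they are needed. The set described here has 10 genes, Zfp36l2, Cpeb1, Ybx2, Ddx6, Patl2, Lsm14b, Eif4e1b, Eif4enif1, Pabpc1l and Dcp2, taken by symbol from 52502 annotated genes that have an exon ID in the files. In cKO oocytes the messages of Zfp36l2 and Ddx6 were higher and that of Dcp2 was lower than in control oocytes. The call on Dcp2 was weak and was lost in 7 of 13 alternative fits. The other 4 tested members did not pass the test, and 3 members held too few counts to be tested.

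A fully grown oocyte with an intact nucleus, called a germinal vesicle (GV) oocyte, has nearly stopped transcription and lives on stored mRNA. Stored messages have short poly(A) tails and carry repressors bound to their 3' untranslated regions. Proteins that sit on the cap, on the tail and along the message decide when it is translated, deadenylated or decapped. m6A, a methyl mark on adenosines of mRNA, is placed by a writer complex of which KIAA1429 (gene Virma) is a scaffold subunit, and the comparison asks how the oocyte's transcripts differ when that subunit is deleted.

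Mutant oocytes came from Kiaa1429F/F;Zp3-Cre females and are called cKO. Controls came from Kiaa1429F/+;Zp3-Cre females, so both groups carry Zp3-Cre, which is active in growing oocytes, and control oocytes keep 1 allele that the Cre does not delete. All mice were C57BL/6, 20 days old in one label and 3 weeks old in another, and received 5 IU of PMSG, a gonadotropin that makes antral follicles grow, 48 hours before oocytes of at least 70 µm were collected. Each group has 4 libraries of about 20 pooled oocytes. The series design speaks of 4 separate experiments. No label ties a library to single animals, so a p-value reflects how much these libraries vary, which may be technical.

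The authors deposited counts per exon ID, which were summed per gene. Libraries held 4399190 to 5064008 counts on exons in cKO and 4247471 to 4790038 in control oocytes. Reads that met more than 1 exon ID were set apart as ambiguous. They were 78.8% to 80.4% of reads in cKO and 72.9% to 75.4% in control oocytes. A gene is thus measured on bases that a single exon ID covers. A read that crosses from an exon into the next may meet more than 1 exon ID as well. Such bases need not all be counted equally well. Reads outside every exon ID were 5.01% to 6.19% of reads in cKO and 9.86% to 12.0% in control oocytes, with no overlap. Virma averaged 19.4 ± 3.26 CPM in cKO and 67.9 ± 11.2 CPM in control oocytes (SD, n = 4 each; CPM, counts per 1000000 counts of the TMM-scaled library). That is -1.81 on the log2 scale, with an SE of 0.18 (edgeR adjusted p = 1.02e-06). Of 10673 genes tested, 27.0% were called higher and 27.9% lower in cKO, 54.9% in all, at an adjusted p under 0.05 (edgeR quasi-likelihood test, Benjamini-Hochberg), and in 50.1% of them the 2 groups did not overlap. With so many genes called, a call on a single gene is common in this comparison.

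Markers of the oocyte and of other ovarian and blood cells were summed per library. Granulosa and cumulus markers, 16 genes led by Nr5a2 and Inha, summed to 427 to 914 CPM in cKO and 230 to 539 CPM in control oocytes (exact two-sided permutation p = 0.0571, where 4 against 4 cannot go below 0.0286). Of the 9 that could be tested 3 were called higher and 2 lower (edgeR), and none of the 16 was at 0 in every library. Nr5a2 (log2 fold change 1.22), Inha (1.39) and Ptgs2 (2.88) were called higher, while Fshr (-1.64) and Cyp19a1 (-1.11) were called lower. Oocyte markers, 10 genes led by Bmp15 and Gdf9, summed to 20199 to 24247 CPM in cKO and 37173 to 49255 CPM in control oocytes (exact permutation p = 0.0286). Of these 10, 4 were called lower, 1 was called higher and 5 were not called (edgeR). Bmp15 (log2 fold change -1.36) and Gdf9 (-0.74) were among those called lower. The 8 immune and blood markers summed to 5.52 to 9.46 CPM in cKO and 0.239 to 1.55 CPM in control oocytes (exact permutation p = 0.0286). Most of that sum in cKO was C1qa, a complement gene, with 135 counts in cKO and 3 in control oocytes. Cd68 had 13 counts in cKO and 4 in control oocytes, Lyz2 had 5 in cKO and 6 in control oocytes, and Ptprc, Adgre1, Cd74, Hba-a1 and Hbb-bs were at 0 in all libraries. The 8 theca, stroma and vessel markers, led by Pecam1 and Dcn, summed to 2.79 to 6.55 CPM in cKO and 5.00 to 8.68 CPM in control oocytes (exact permutation p = 0.0857). Over the 4 lists the p-values adjusted by Benjamini-Hochberg were 0.0571 to 0.0857. The part of these sums, and of the shares of ambiguous reads and of reads outside exon IDs, in the values of the storage factors was not tested.

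Of the 10 members, 7 could be tested. Calls were made for 2 in the higher direction, beside 27.0% of all genes tested, and for 1 in the lower direction, beside 27.9%. The median log2 fold change of the 7 was -0.19, beside 0.02 over all genes tested. Groups did not overlap in 4 of the 7, a share near the 50.1% of all genes tested. As counts, these shares say nothing particular about the set, and the members are therefore described one by one.

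**Figure D1:**
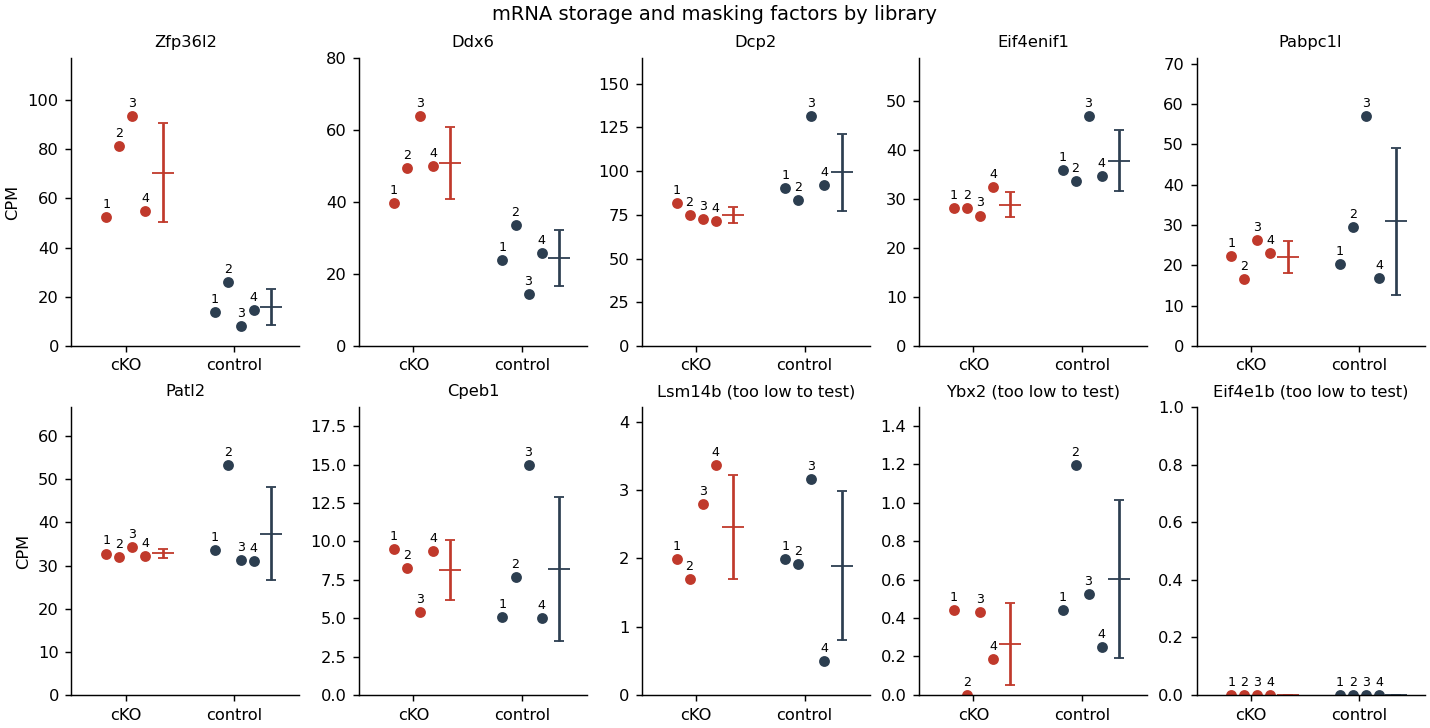
CPM (TMM-scaled) of each member in every library, cKO (red) left of control (dark blue), with replicate numbers beside the points and the mean and SD as a bar. Zfp36l2 and Ddx6 sit higher in all 4 cKO libraries than in any control library, Dcp2 and Eif4enif1 sit lower in all 4, and control library 3 is the lowest control point for Zfp36l2 and Ddx6 and the highest for Dcp2, Eif4enif1, Pabpc1l, Cpeb1 and Lsm14b.

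The first members bind elements in the 3' UTR. Zfp36l2 (ENSMUSG00000045817.8) encodes a zinc finger protein that binds AU-rich elements and recruits deadenylases, and mice need it in the oocyte for fertility. It lies on the minus strand at chr17:84183931-84187947 (GRCm38). In cKO libraries 1 to 4 it had 52.3, 81.2, 93.7 and 54.9 CPM, against 14.0, 25.9, 8.15 and 14.8 CPM in control libraries 1 to 4. The lowest cKO library was above the highest control library. Means were 70.5 ± 20.2 CPM in cKO and 15.7 ± 7.39 CPM in control oocytes (SD, n = 4 each), a log2 fold change of 2.16 (SE 0.29, 95% interval 1.55 to 2.78, adjusted p = 1.71e-05, edgeR). As libraries were made from pools, a change in the cells that hold the message and a change per cell cannot be told apart. This holds for every member below. CPM is scaled within each library, so it does not give the amount of RNA per oocyte. Priming was from oligo-dT, and the part of poly(A) tail length in these values was not tested.

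Nearly all of this signal, 97.8% of 1608 counts, lay on the last of its 2 exons, chr17:84183931-84187156, which holds coding sequence and the 3' UTR. Tested alone, that exon gave 2.23 on the log2 scale, with an SE of 0.30 (edgeR adjusted p = 1.57e-05). Of 14052 exons tested in this way, 26.2% were called higher and 27.3% lower, 53.5% in all. An antisense gene, AC132455.1, overlaps it. That gene has no exon ID in the files, and the libraries do not mark strand, so reads of the 2 strands cannot be told apart. The first exon held 24 counts in cKO and 12 in control oocytes and could not be tested.

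Sites of this last exon are shown because Zfp36l2 was the member with the largest fold change and its exon holds sites of the kind its own protein binds. Capitals mark the motif, and up to 10 bases on each side are in lower case. The motifs were searched on the gene's strand alone, overlapping hits counted, in the transcripts of GENCODE M21. They are GGACT (one form of the m6A consensus), TTTTAT and TTTTAAT (cytoplasmic polyadenylation elements, bound by CPEB proteins), TATTTAT (an AU-rich element) and AATAAA (the polyadenylation signal). For each motif the first hit is printed, and for AATAAA the hit nearest the end. A first hit can lie far from the end, and 1654 bases separate the TTTTAT printed here from the exon's end.
Zfp36l2 GGACT, coding, chr17:84185874-84185898: ccagccccccGGACTcgctctcgga
Zfp36l2 TTTTAT, UTR, chr17:84185575-84185600: tttttttgttTTTTATtattattttt
Zfp36l2 TATTTAT, UTR, chr17:84184915-84184941: ctatttaactTATTTATtatcttgtga
Zfp36l2 AATAAA, UTR, chr17:84183931-84183955: agtttcccccAATAAAattttttgg

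The exon, 3226 bases long, held 3 GGACT, 4 TTTTAT, 3 TATTTAT and 1 AATAAA and no TTTTAAT. Among the last exons of 10100 tested genes, 65.9% held GGACT, 54.5% TTTTAT, 30.7% TTTTAAT, 27.9% TATTTAT and 72.0% AATAAA at least once. Per kb, the Zfp36l2 exon had 0.930 TATTTAT, more than 92.8% of those last exons. Its 0.930 GGACT per kb was near the 0.932 per kb over all of them. A match is a string of letters and not a measured site, and no m6A was measured in these libraries.

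Cpeb1 (ENSMUSG00000025586.17) encodes the protein that reads the cytoplasmic polyadenylation element and holds stored messages silent until meiosis resumes. It lies at chr7:81347026-81455465 on the minus strand. Its level was 9.53, 8.29, 5.37 and 9.36 CPM in cKO libraries 1 to 4, against 5.10, 7.66, 15.0 and 5.00 CPM in control libraries. The groups overlapped, and control library 3 was the highest of all 8 libraries. The log2 fold change was 0.01 (SE 0.33, 95% interval -0.70 to 0.71, adjusted p = 0.990, edgeR), an interval of 0.617 to 1.63 as a fold. Without control library 3 it was 0.46 and still not called. Of its 289 counts, 91.7% lay on a single internal coding exon of 253 bases at chr7:81359729-81359981, and 6.57% on last exons.

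Ybx2 (ENSMUSG00000018554.13), also known as MSY2, is a germ cell Y-box protein that coats and stabilises maternal mRNA. It lies at chr11:69935796-69941605 on the plus strand, and 33.4% of its exonic bases were covered by exactly 1 exon ID. It had 2, 0, 2 and 1 counts in the cKO libraries, against 2, 5, 2 and 1 counts in the control libraries. These 5 counts in cKO and 10 in control oocytes stand in a ratio of 0.479, with a 95% Clopper-Pearson interval of 0.128 to 1.54 that covers counting alone. No difference was detectable at this depth, and the low count does not measure how abundant the message is.

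The next members form the repressive particle around the helicase DDX6. Ddx6 (ENSMUSG00000032097.10) encodes a DEAD-box RNA helicase that represses translation and links messages to decapping in P-bodies and in oocyte storage particles. It lies at chr9:44604892-44640731 on the plus strand. In cKO libraries 1 to 4 it had 39.9, 49.5, 64.1 and 50.0 CPM, against 24.0, 33.5, 14.5 and 25.8 CPM in control libraries. Every cKO library was above every control library. Means were 50.9 ± 9.96 CPM in cKO and 24.4 ± 7.83 CPM in control oocytes (SD, n = 4 each), a log2 fold change of 1.05 (SE 0.23, 95% interval 0.57 to 1.54, adjusted p = 0.00108, edgeR). Leaving out any library kept both this call and that of Zfp36l2.

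The counts of Ddx6 lay almost wholly on its last exon of 4243 bases, chr9:44636489-44640731, which is 3' UTR and held 99.3% of 1384 counts. That exon alone gave 1.09 on the log2 scale, with an SE of 0.23 (edgeR adjusted p = 0.00104). The call therefore rests on 3' UTR reads. Most coding exons of Ddx6 have exon IDs that overlap one another in the annotation and hold no counts. The sites below are shown to set this exon beside that of Zfp36l2, with capitals as before.
Ddx6 GGACT, UTR, chr9:44637080-44637104: gccggaaggtGGACTagtgatggca
Ddx6 TTTTAT, UTR, chr9:44636996-44637021: ctattttcttTTTTATttctttgcct
Ddx6 TTTTAAT, UTR, chr9:44638287-44638313: ttaaaaatgtTTTTAATtcccttttaa
Ddx6 AATAAA, UTR, chr9:44640699-44640724: aatttatctcAATAAAagcccactgg

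The Ddx6 exon held 4 GGACT, 3 TTTTAT, 4 TTTTAAT and 2 AATAAA and no TATTTAT. Its printed TTTTAT and TTTTAAT lie 3720 and 2428 bases before the exon's end. Its 0.943 TTTTAAT per kb was more than 92.5% of last exons had. Both exons held GGACT and TTTTAT, while TTTTAAT was found in that of Ddx6 and TATTTAT in that of Zfp36l2. The last exon of Dcp2, the member called lower, is 7404 bases long and held all of these, with 5 GGACT, 8 TTTTAT, 4 TTTTAAT, 2 TATTTAT and 3 AATAAA. Such letters are common in long last exons. Of those between 2000 and 6000 bases, 90.7% held GGACT, 85.9% TTTTAT, 55.5% TTTTAAT, 50.8% TATTTAT and 92.3% AATAAA.

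Patl2 (ENSMUSG00000027233.4) encodes an oocyte RNA-binding protein of the Pat1 family, whose loss impairs oocyte maturation in women and in mice. It lies at chr2:122120108-122186189 on the minus strand. Counts amounted to 32.8, 32.1, 34.4 and 32.2 CPM in cKO libraries 1 to 4, against 33.7, 53.4, 31.3 and 31.0 CPM in control libraries. The groups overlapped, and control library 2 stood above the other 7. The log2 fold change was -0.19 (SE 0.19, 95% interval -0.59 to 0.22, adjusted p = 0.430, edgeR), and 0.02 without control library 2.

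Patl2 has a single transcript, every base of it lies in exactly 1 exon ID, and 14 of its 18 exon IDs held counts. The counts were still uneven, and its exons of 93 and 110 bases held 0. The last exon of 341 bases, all 3' UTR, held 66.9% of 1249 counts and stood at 0.01 on the log2 scale, SE 0.22 (edgeR adjusted p = 0.971). It carries no GGACT, polyadenylation element or AU-rich element of the forms searched, and a single AATAAA, shown because most counts of Patl2 lie beside it. The exon is far shorter than those of Zfp36l2, Ddx6 and Dcp2, so the counts of motifs are not comparable.
Patl2 AATAAA, UTR, chr2:122120117-122120142: ccttgtatttAATAAAagtctaatct

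Exon usage, the share of an exon within its gene, could be tested for Patl2 and Pabpc1l, and neither was called (adjusted p = 0.887 for Patl2 and 0.786 for Pabpc1l, edgeR diffSpliceDGE; 23.0% of 2847 genes were called). The fourth Patl2 exon, chr2:122129501-122129587, is 87 bases long and holds the first 16 coding bases. It fell short of the filter on low counts. It had 5, 5, 5 and 4 counts in cKO libraries, against 13, 32, 13 and 6 counts in control libraries, so every cKO library was below every control library. As a share of the gene's counts this was 3.04% ± 0.48 in cKO and 9.67% ± 4.00 in control oocytes (SD, n = 4 each). The neighbouring exons had 37 counts in cKO and 48 in control oocytes on the 5' side, and 65 in cKO and 50 in control oocytes on the 3' side. The exon was singled out after its values were seen. It entered the usage test in those fits that left out 1 library and so loosened the filter (each cKO library or control library 4), where its usage log2 fold change was -1.66 to -1.95 and the gene's adjusted p 0.00216 to 0.0429. It passed there through the control libraries in which it is high, so these values describe it and are no support.

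**Figure D2:**
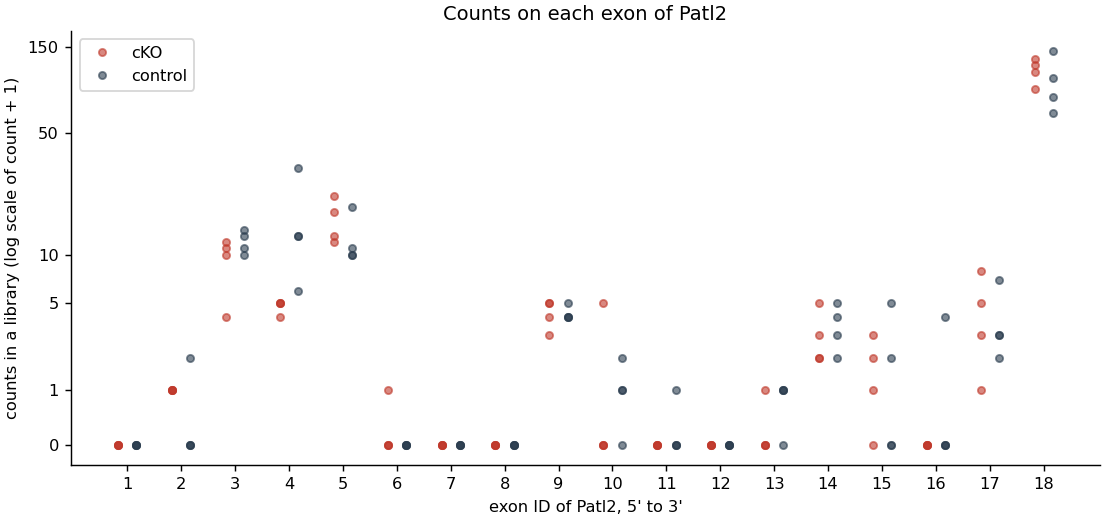
Counts on each of the 18 exon IDs of Patl2 in 5' to 3' order (log scale of the count + 1), each point a library, cKO (red) left of control (dark blue). The last exon holds most counts in both groups, and on exon 4 the cKO libraries lie at 4 to 5 counts, below the control libraries at 6 to 32.

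Lsm14b (ENSMUSG00000039108.14) encodes an Lsm-domain partner of DDX6 that is abundant in oocytes and needed for female fertility in mice. At chr2:180024987-180035465 on the plus strand, with 28.4% of its exonic bases countable, it had 9, 8, 13 and 18 counts in cKO libraries, against 9, 8, 12 and 2 counts in control libraries. The sums of 48 in cKO and 31 in control oocytes stand in a ratio of 1.48, with a 95% Clopper-Pearson interval of 0.924 to 2.41 that covers counting alone. The gene did not pass the filter, and the interval includes a ratio of 1.

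The cap end of a stored message is held by an oocyte form of the cap-binding protein and its partner. Eif4e1b (ENSMUSG00000074895.10) encodes that cap-binding protein, at chr13:54783998-54788459 on the plus strand. It had 0 counts in all 8 libraries, where 3 counts, the limit a count of 0 allows, would be 0.592 to 0.706 CPM before TMM scaling. Of its 2255 exonic bases 201, or 8.91%, lie in exactly 1 of its 35 exon IDs. The files therefore hold next to no place where its reads could be counted, and the 0 does not measure its level.

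Eif4enif1 (ENSMUSG00000020454.17) encodes the eIF4E transporter, which binds the cap-binding protein and keeps translation initiation from starting. It lies at chr11:3202392-3244588 on the plus strand. In cKO libraries 1 to 4 it had 28.1, 28.3, 26.7 and 32.6 CPM, against 35.9, 33.8, 47.1 and 34.8 CPM in control libraries. Every cKO library was below every control library. The log2 fold change was -0.39 (SE 0.17, 95% interval -0.74 to -0.03), and the adjusted p of 0.0613 missed the threshold (edgeR). It was called when protein-coding genes were scaled and tested alone (adjusted p = 0.0258) and without control library 2 (adjusted p = 0.0390). The other 12 of 14 alternatives did not call it, and over all 14 the log2 fold change was -0.47 to -0.22. Of 1179 counts, 85.1% lay on a single internal coding exon of 342 bases, chr11:3242377-3242718, which lies within the span of Drg1 on the opposite strand.

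Pabpc1l (ENSMUSG00000054582.4) encodes the embryonic poly(A)-binding protein, which covers the tails of messages in oocytes and is needed for female fertility in mice. It lies at chr2:164025450-164050538 on the plus strand. Its level was 22.2, 16.6, 26.2 and 23.0 CPM in cKO libraries 1 to 4, against 20.4, 29.4, 57.1 and 16.8 CPM in control libraries. The groups overlapped and control library 3 stood far above the rest. The log2 fold change was -0.49 (SE 0.31, 95% interval -1.15 to 0.18, adjusted p = 0.203, edgeR), and -0.01 without control library 3. The first exon, chr2:164025450-164025673, held 87.3% of 922 counts, and the last exons held none.

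The last member removes the cap. Dcp2 (ENSMUSG00000024472.9) encodes the catalytic subunit of the decapping enzyme, whose message in mouse oocytes is itself stored and translated as meiosis resumes. It lies at chr18:44380502-44424969 on the plus strand. In cKO libraries 1 to 4 it had 81.8, 74.8, 72.4 and 71.7 CPM, against 90.5, 83.3, 132 and 91.8 CPM in control libraries. The groups did not overlap, by a gap that was small beside the spread of the control libraries. Means were 75.2 ± 4.58 CPM in cKO and 99.3 ± 21.9 CPM in control oocytes (SD, n = 4 each), and the log2 fold change was -0.40 (SE 0.16, 95% interval -0.74 to -0.06, adjusted p = 0.0433, edgeR).

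The call on Dcp2 was the weakest of the 3. It was lost without any 1 of the cKO libraries (adjusted p = 0.0629 to 0.109), without control library 3 (log2 fold change -0.23, adjusted p = 0.142) and with no filter on low counts (adjusted p = 0.0717). Its last exon of 7404 bases, chr18:44417566-44424969, held 99.5% of 3065 counts. Tested alone that exon was not called (log2 fold change -0.38, SE 0.16, adjusted p = 0.0611).

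**Figure D3:**
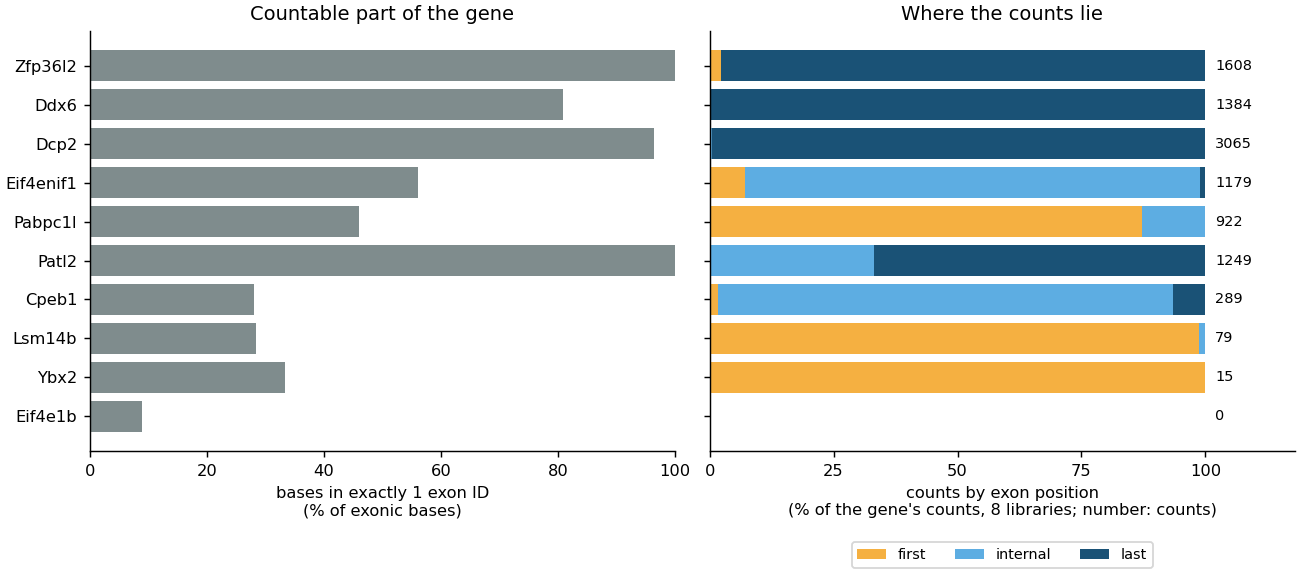
Left, the percent of each member's exonic bases that lie in exactly 1 exon ID, taken as countable. Right, the percent of its counts over the 8 libraries on first (orange), internal (light blue) and last (dark blue) exons, with the number of counts at the bar's end. Zfp36l2, Ddx6 and Dcp2 are measured on last exons, Pabpc1l and Lsm14b on first exons, Cpeb1 and Eif4enif1 on internal ones, and Eif4e1b holds no count.

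Where a member was measured differed from gene to gene. Together the members have 240 exon IDs, of which 52 held a count and 10 could be tested. Of these 10, 2 were called higher and 0 lower (edgeR, beside 26.2% and 27.3% of all exons tested), and these were the last exons of Zfp36l2 and Ddx6. At an unadjusted p under 0.05, 1 was lower, the last exon of Dcp2. The 3 members called on gene counts were those with 97.8% or more of their counts on 1 last exon. Over all genes 84.0% to 86.6% of counts lay on exons that are last in some transcript.

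Control library 3 stood at an end of the control range for several members at once. It was the lowest control library for Zfp36l2 and Ddx6 and the highest for Cpeb1, Pabpc1l, Eif4enif1, Dcp2 and Lsm14b. It also had the highest sum of oocyte markers, 49255 CPM against 37173 to 38109 CPM in the other 3 control libraries. Without it the log2 fold changes of Zfp36l2 and Ddx6 were 1.95 and 0.87, both still called, while those of Dcp2 and Pabpc1l shrank by more than 1.5 times as given above.

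To set levels of different genes side by side, CPM was divided by the kb of countable bases. Zfp36l2 had the highest level of the 10 in cKO oocytes, 20.0 ± 5.73 CPM per kb, and was sixth in control oocytes with 4.44 ± 2.09 CPM per kb (SD, n = 4 each). Pabpc1l followed with 17.6 ± 3.21 CPM per kb in cKO and was first in control oocytes with 24.7 ± 14.6. Patl2 had 13.5 ± 0.44 in cKO and 15.3 ± 4.42 CPM per kb in control oocytes. Each neighbouring pair in the control order had overlapping libraries, from Pabpc1l down to Ybx2. In the cKO order neighbours overlapped except at 3 steps, between Patl2 and Dcp2, between Cpeb1 and Lsm14b and between Lsm14b and Ybx2.

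Dcp2 had 8.96 ± 0.55, Eif4enif1 8.10 ± 0.72, Ddx6 7.82 ± 1.53 and Cpeb1 6.91 ± 1.63 CPM per kb in cKO oocytes, ranges that ran into one another. In control oocytes Dcp2 had 11.8 ± 2.62, Eif4enif1 10.6 ± 1.74, Cpeb1 6.95 ± 3.99 and Ddx6 3.76 ± 1.20 CPM per kb. Lsm14b stood at 3.00 ± 0.93 in cKO and 2.30 ± 1.32 CPM per kb in control oocytes, and Ybx2 at 0.421 ± 0.34 in cKO and 0.961 ± 0.65. Libraries of Ddx6 thus overlapped those of Dcp2 and Eif4enif1 in cKO oocytes and lay below both, with no overlap, in control oocytes. The order depends on the length used. Over the full exonic length, Zfp36l2 stayed highest in cKO oocytes and was the fifth in control oocytes, since Cpeb1 then had 1.94 in cKO and 1.95 CPM per kb in control oocytes. Pabpc1l then had 8.08 in cKO and 11.4 CPM per kb in control oocytes, below Patl2 and Dcp2 in both groups. The order is a description, as exons near the 3' end and exons far from it may not be read equally well after oligo-dT priming. Reads that cross from an exon into the next may also be set apart as ambiguous, and the countable length does not allow for this.

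**Figure D4:**
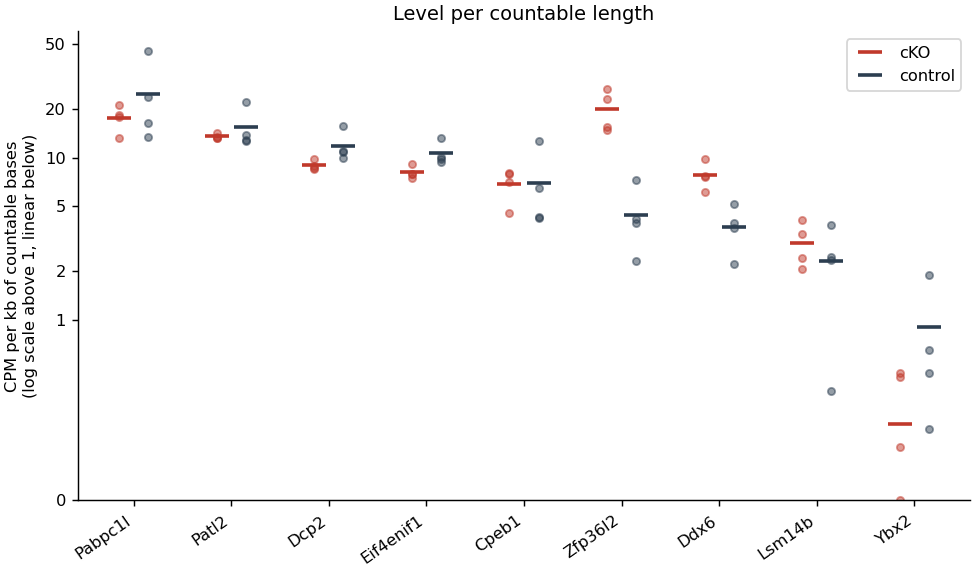
CPM per kb of countable bases (log scale above 1, linear below) for the 9 members with a count, each point a library and each bar the group mean, cKO (red) left of control (dark blue), ordered by the control mean. On this length Zfp36l2 is at the top in cKO oocytes and sixth in control oocytes (the fifth over the full exonic length), and Ddx6 sits beside Dcp2 and Eif4enif1 in cKO oocytes and below them in control oocytes.

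Related genes were read from 4 lists of the same machinery. Of 19 paralogs of the members, 9 could be tested, with 2 higher, 2 lower and 5 not called (edgeR, beside 27.0% and 27.9% of all genes tested, median log2 fold change 0.09). Eif4e3, a cap-binding protein of the eIF4E family, averaged 380 ± 7.86 CPM in cKO and 873 ± 147 CPM in control oocytes (log2 fold change -1.20, SE 0.13, adjusted p = 2.77e-06). Its main exon overlaps the gene model Gm20696 on the same strand. Pabpc4, a cytoplasmic poly(A)-binding protein, was lower, 12.4 ± 1.42 CPM in cKO against 29.2 ± 4.24 CPM in control oocytes (log2 fold change -1.24, SE 0.18, adjusted p = 4.73e-05).

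Cpeb4, which replaces CPEB1 late in meiosis in frog oocytes, was higher, 170.1 ± 13.7 CPM in cKO against 108.6 ± 12.1 CPM in control oocytes (log2 fold change 0.65, SE 0.13, adjusted p = 0.000728). Patl1, the somatic Pat1 homolog of P-bodies, was higher by nearly the same amount (log2 fold change 0.65, SE 0.15, adjusted p = 0.00166). In the Cpeb, Patl and Pabpc families a paralog was thus called and the member was not. These paralogs were named for their small p, and 54.9% of all genes tested were called. Pabpc4l (log2 fold change 0.56, SE 0.53) and Pabpc6 (-0.39, SE 0.30) were tested and not called. No difference between paralog and member was tested. The other Zfp36 family members held 3 counts between them over all libraries. Of the exonic bases, 298 of 2990 in Zfp36l1 and 1560 of 3470 in Zfp36 lie in exactly 1 exon ID. The low count of Zfp36l1 therefore does not measure its level, and the low count of Zfp36 need not. Zfp36l3 had 2 counts in cKO and 0 in control oocytes, and all 2347 of its exonic bases lie in exactly 1 exon ID.

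Of 35 repressors and partners in storage particles, 21 could be tested, with 6 higher, 3 lower and 12 not called (median log2 fold change 0.20). Over all genes tested 27.0% were higher and 27.9% lower. Nanos2, which recruits a deadenylase complex in male germ cells, had 14.8 ± 3.15 CPM in cKO and 80.1 ± 12.9 CPM in control oocytes (log2 fold change -2.43, SE 0.19, adjusted p = 1.25e-07). An antisense gene, Gm45058, overlaps its main exon. Its relative Nanos1 was lower as well (log2 fold change -0.75, SE 0.18, adjusted p = 0.00222).

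Eif4ebp2, which binds eIF4E and blocks initiation, was higher, 48.0 ± 6.26 CPM in cKO against 21.3 ± 5.92 CPM in control oocytes (log2 fold change 1.17, SE 0.20, adjusted p = 0.000190). G3bp1, the core protein of stress granules, was higher too (log2 fold change 0.70, SE 0.15, adjusted p = 0.00102). The other calls were Caprin1, Elavl1, Fxr1 and Bicc1 in the higher and Igf2bp3 in the lower direction, and these 5 stand outside the rule for named genes. Both Zar1, the organiser of the oocyte's mitochondrial mRNA store (log2 fold change -0.45, SE 0.30), and Dazl (0.17, SE 0.12) missed the threshold.

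Of 17 genes of decapping and 5'-to-3' decay, 8 could be tested, with 3 higher, 1 lower and 4 not called (median log2 fold change 0.39). These counts stand beside 27.0% higher and 27.9% lower over all genes tested. Pnrc2, a decapping coactivator, had 144 ± 23.7 CPM in cKO and 74.3 ± 12.1 CPM in control oocytes (log2 fold change 0.95, SE 0.16, adjusted p = 0.000171). Its relative Pnrc1 (log2 fold change 0.59, SE 0.20, adjusted p = 0.0188) and Lsm1, a subunit of the ring that guides decapping (0.55, SE 0.18, adjusted p = 0.0153), were higher by less. Lsm1 rests on its last exon, without which its log2 fold change was -0.29 and not called, and Pnrc1 was not called without cKO library 3, control library 1 or control library 4. Upf1, the helicase of nonsense-mediated decay, was lower (log2 fold change -0.48, SE 0.13, adjusted p = 0.00583), and its main exon overlaps Cers1 and Gdf1 on the opposite strand. Dcp1a, the partner of DCP2, was not called (log2 fold change -0.28, SE 0.18).

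Of 10 poly(A) tail factors, 4 could be tested, with 0 higher, 1 lower and 3 not called (edgeR, median log2 fold change -0.22). The shares over all genes tested were 27.0% higher and 27.9% lower. At an unadjusted p under 0.05, 0 of these factors were higher, and 0 by DESeq2. Paip2b, an inhibitor of poly(A)-binding protein, had 613 ± 44.7 CPM in cKO and 847 ± 83.6 CPM in control oocytes (log2 fold change -0.47, SE 0.12, adjusted p = 0.00375). The cytoplasmic poly(A) polymerase Tent2 (log2 fold change 0.38, SE 0.21), the uridylyltransferase Tut7 (-0.34, SE 0.31) and the activator Paip1 (-0.10, SE 0.15) were not called.

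**Figure D5:**
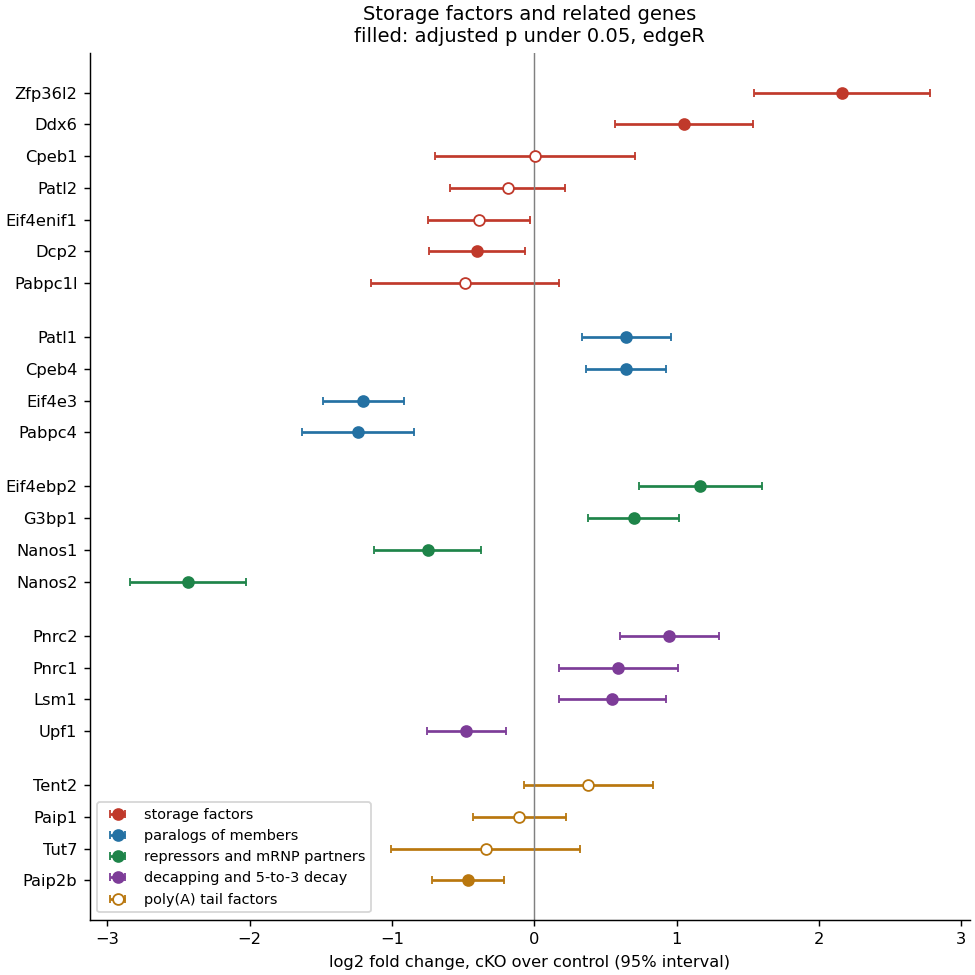
Log2 fold change of cKO over control oocytes with its 95% interval for the 7 tested members (red) and the named genes of 4 related lists, filled where the edgeR adjusted p was under 0.05. Zfp36l2 at 2.16 and Nanos2 at -2.43 mark the ends, and within each list the calls point both ways except among poly(A) tail factors, where the call is Paip2b at -0.47.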

How the data were processed

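RNA of GV oocytes was reverse transcribed from oligo-dT with template switching, amplified, tagmented and sequenced in pairs, per the labels' protocols. Strand is not marked. For each of the 8 libraries the authors deposited raw counts, 1 whole number for every exon ID. The submitters' processing notes name STAR, HTSeq and mm10. Which versions, options and annotation release they used were not given in the sources used here. Of 496288 exon IDs, 494230 matched GENCODE M21 (GRCm38) with versions ignored, and 2058, holding 0.219% to 0.295% of counts, stayed out, as did 5 summary rows. Of these rows, ambiguous reads took 72.9% to 80.4% of reads and reads outside exon IDs 5.01% to 6.19% in cKO and 9.86% to 12.0% in control oocytes.

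Counts were summed per gene, filtered by filterByExpr (minimum count 10), scaled by TMM and fitted in edgeR 4.0.16 (R 4.3.3). Its quasi-likelihood test compared cKO with control, two-sided and without covariates, at a Benjamini-Hochberg adjusted p under 0.05 over all genes. Exon counts and exon usage (diffSpliceDGE, converted to log2) were tested likewise over all exons or genes. The SE is the log2 fold change over the root of its F statistic. Marker sums were compared by exact permutation over 70 arrangements (scipy 1.17.1). Precision is set by 4247471 to 5064008 counts per library. Intervals and floors of few counts cover counting error only, since amplified reads are not independent molecules. Countable bases lie in exactly 1 exon ID of the files on either strand. Motif sequences come from GENCODE M21 transcripts, and promoters were not used.

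Members and lists were chosen with earlier results of these data known. Named genes are all 10 members, Virma, up to 4 tested genes of smallest p in each of 4 lists and the highest 2 genes of each marker list. Fshr, Cyp19a1, Ptgs2, Lyz2, Zfp36, Zfp36l1, Zfp36l3, Pabpc4l, Pabpc6, Zar1, Dazl, Dcp1a, Caprin1, Elavl1, Fxr1, Bicc1 and Igf2bp3 were added after their values were seen. Alternatives were RLE size factors, no filter, DESeq2 1.42.0, the replicate number as a term, gene sums without last exons, protein-coding genes alone, a minimum count of 20 for exons, full exonic length, and leaving out each library.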

Additional observations from a re-analysis of the deposited data

Results flagged for a closer look

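Of 58 groups of 4 libraries looked at, 6 had a library far from the other 3 (Dixon's 95% critical value), where chance alone flags about 2.9. Among the members, control library 2 had 53.4 CPM of Patl2, against 33.7 CPM in the next control library, and control library 3 had 47.1 CPM of Eif4enif1, against 35.9 CPM in the next. Among related genes, cKO library 3 had 13.1 CPM of Tent2, against 9.99 CPM in the next cKO library, and cKO library 4 had 547 CPM of Paip2b, the lowest, against 630 CPM in the next. Of the summed markers, control library 3 had 49255 CPM of oocyte markers, against 38109 CPM in the next control library, and cKO library 4 had 6.55 CPM of theca, stroma and vessel markers, against 3.19 CPM in the next cKO library.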

How the results depend on the processing

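The calls on Zfp36l2 (log2 fold change 1.95 to 2.50) and Ddx6 (0.87 to 1.23) held under every alternative that could measure them. Of 480 alternative values of 39 single results, 463 kept their side of the threshold, 11 lost a call, 5 gained one and 1 reversed. Reversed means a change of sign where either fit was called. Values not called in either fit could change sign within the 463, as did Patl2 (-0.19 in the main fit, at most 0.02). The number of members called lower was 0 with no filter, 0 under the replicate block and 2 with protein-coding genes alone. Under no filter, 5 repressors and 3 decapping genes were called lower. That fit tested 29551 genes and more genes of each list, so these counts are not comparable with those of the main fit. Without last exons 4189 genes could be tested, their log2 fold changes lay 0.169 higher at the median, 973 genes were called higher and 995 lower, and Zfp36l2, Ddx6 and Dcp2 could not be tested. There 0 members were called higher and 0 lower (edgeR), paralogs 0 higher and 1 lower, repressors 2 and 0, decapping genes 0 higher, and poly(A) tail factors 1 higher (Tent2) and 0 lower. Lsm1 reversed to -0.29 without last exons (adjusted p = 0.446); the cause was not tested. With a minimum count of 20, 411 genes were called for exon usage and no member could be tested.

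Leaving out 1 library in turn gave 0 to 2 members called lower, 1 to 2 decapping genes lower, 0 to 1 member exons lower and 0 to 1 members called for exon usage. Members called higher were 2 each time. The difference (cKO minus control) of oocyte markers was then -19136.5 to -15109.3 CPM and of immune markers 6.67 to 7.98 CPM, where an exact permutation of 3 against 4 libraries cannot go below p = 0.0571.

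Same-numbered libraries deviated together by correlations of -0.052 to 0.104, and libraries of different numbers by -0.199 to 0.189. No pairing by number was visible, but 4 libraries per group are too few to settle whether the samples are paired. Under the replicate block Dcp2 was not called (adjusted p = 0.0608). Few counts limit Ybx2, Lsm14b and Eif4e1b, of whose exonic bases 33.4%, 28.4% and 8.91% are countable; depth alone was not varied.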
